A study of Mus musculus with 2 samples.

Results

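The genes described here encode the proteins of the cytosolic ribosome. They were taken by name: a probe set belonged to them when its only gene symbol in the platform annotation was that of a large subunit protein (Rpl and Rplp symbols) or a small subunit protein (Rps symbols and Rpsa), leaving out the S6 kinase genes and pseudogenes named as such. The choice used no measured value. A total of 106 of the 45101 probe sets on the array met it, for 50 of 18194 named genes, 26 with a large subunit symbol (48 probe sets) and 24 with a small subunit symbol (58 probe sets). Of the 50, 43 encode a protein of the common ribosome, 6 are paralogues of such genes, and 1, Rps19bp1, encodes a protein that binds Rps19 and is no part of the ribosome.

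Expression had been profiled in 2 single cells of dissociated retina from CD1 mice, an albino outbred strain, with 1 cell from embryonic day 12.5 (E12.5) and 1 from the day of birth (P0). No genetic change or treatment is given for either, and both were prepared by papain dissociation, capillary picking and 35 cycles of PCR on cDNA primed at the poly(A) tail. The labels call both cells ciliary body, an assignment the submitters had made from gene expression. With 1 array per age there is no replicate check, so every difference below lies between these 2 cells. Neither p-values nor intervals are given. Precision is limited by the number of arrays.

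Each ribosome joins a large and a small subunit, and the cytosolic ribosomal proteins are made in matched amounts, so that their mRNAs are among the most abundant in growing cells. Most of these mRNAs begin with a cytosine followed by a run of pyrimidines, the terminal oligopyrimidine (TOP) sequence, through which mTOR and the RNA-binding protein Larp1 control their translation. In the growing optic cup, progenitors that divide need new ribosomes at every cycle. The genes have many processed pseudogenes and near-identical copies in the mouse genome, so a probe set can read more than 1 source, and the deposited table cannot separate them.

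The start sites are shown because the TOP sequence is the feature these mRNAs are best known to share. RefSeq's promoter table (GRCm38.p6, 250 bases before to 50 after each annotated start) held 44 of the 50 genes. A start at C followed by 4 pyrimidines was found in 8 of the 44 (18.2%) and in 3.01% of all 27025 genes of that table. These 8 are printed 5′ to 3′ as the 60 bases around the annotated start, which is the base after the 30th, with the pyrimidine run in capitals.
Rpl14: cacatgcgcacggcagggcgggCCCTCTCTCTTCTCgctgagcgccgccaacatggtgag
Rpl35: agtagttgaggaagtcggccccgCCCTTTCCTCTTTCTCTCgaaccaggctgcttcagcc
Rpl38: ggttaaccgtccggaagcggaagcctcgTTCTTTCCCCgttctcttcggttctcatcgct
Rplp2: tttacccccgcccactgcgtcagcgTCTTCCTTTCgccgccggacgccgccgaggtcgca
Rps6: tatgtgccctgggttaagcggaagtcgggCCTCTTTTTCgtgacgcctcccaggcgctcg
Rps10: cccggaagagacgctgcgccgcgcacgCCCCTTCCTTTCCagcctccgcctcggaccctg
Rps18: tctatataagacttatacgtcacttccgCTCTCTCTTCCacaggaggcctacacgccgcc
Rps27: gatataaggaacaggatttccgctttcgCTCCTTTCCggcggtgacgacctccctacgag

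The windows lie in GRCm38.p6, with Rpl14 at chr9:120571487-120571546 on the plus strand, Rpl35 at chr2:39005102-39005161 on the minus strand, Rpl38 at chr11:114668550-114668609 on the plus strand, Rplp2 at chr7:141447621-141447680 on the plus strand, Rps6 at chr4:86857338-86857397 on the minus strand, Rps10 at chr17:27635215-27635274 on the minus strand, Rps18 at chr17:33955636-33955695 on the minus strand and Rps27 at chr3:90213619-90213678 on the minus strand. The run at Rpl35, whose signal is the highest of all named genes at E12.5, is 18 bases long. For comparison, the windows of Rpl4 and Rps7, which follow Rpl35 as the next brightest genes in that cell, hold no C followed by at least 5 pyrimidines that lies wholly within 10 bases of the annotated start. The Rpl4 window has a pyrimidine run that begins further upstream, and the Rps7 window has such runs near its upstream end and at its downstream end.
Rpl4: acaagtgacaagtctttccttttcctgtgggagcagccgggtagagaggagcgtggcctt
Rps7: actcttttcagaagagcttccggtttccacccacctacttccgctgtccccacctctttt

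Those of the pair are Rpl4 at chr9:64173357-64173416 on the plus strand and Rps7 at chr12:28635924-28635983 on the minus strand. A wider search, for C followed by at least 5 pyrimidines lying wholly within 10 bases of the start, was written after the starts had been seen and matched 22 of 44 genes (50.0%) against 18.2% of all genes. Of the 7-base motifs searched on both strands of the 300-base windows, CCGGAAG, the core bound by ETS factors, was in 21 of 44 (47.7%) against 9.93% of all genes, and AAGATGG, the core bound by Yy1, in 8 of 44 (18.2%) against 7.28%. The 6-base TATAAA was in 6 (13.6%) against 15.7%. These matches describe the letters of the windows only.

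The signals are MAS5 intensities, in arbitrary units on a linear scale, as the authors deposited them. Background was judged from 207 probe sets of gene families not used by the eye, such as olfactory receptors and keratin-associated proteins. Their 99th percentile, a signal of 237 at E12.5 and 369 at P0, served as the limit above which a probe set counts as measured. Median signals over all probe sets were 43.2 and 42.2. Of marker lists, 8 of 12 ciliary margin genes were above the limit at E12.5 and 7 at P0, with Bmp4, Mitf and Msx1 above it in neither. Of 6 genes that mark ciliary body or iris as they differentiate, 4 and 6 were above it, and of 10 measured retinal progenitor genes, 10 and 8. No measured photoreceptor gene (of 4), lens gene (of 4), erythroid gene (of 2) or microglial gene (of 3) was above it in either cell. At P0, 2 of 4 mesenchymal genes (list sum 5859, against 231 at E12.5) and 1 of 3 vascular genes (1034 against 130) were above it, with Twist1, Col1a1, Pecam1 and Cdh5 below in both. The amacrine list had 2 of 6 genes above the limit at E12.5 and 1 at P0, and the ganglion cell list 1 of 5 in each. Whether RNA of another cell contributes to the values below was not tested.

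Most ribosomal protein genes were among the brightest genes of both cells, and each of the 39 that was above background in both had the lower signal at P0 on the deposited scale, or 31 of the 39 after quantile normalisation. Of the 50 genes, 43 were above the limit at E12.5 and 42 at P0, 39 in both and 4 in neither. In percent this is 86.0% and 84.0%, where 30.8% and 28.1% of all named genes were above the limit. The median signal over the 50 genes was 32167 at E12.5 and 20976 at P0, against 73.3 and 72.4 over all named genes, and their median percentile rank was 99.8 and 99.7. Among the 50 brightest genes of the E12.5 cell 29 were ribosomal protein genes, and among those of the P0 cell 22 were. Probe sets of these genes were 0.303% of the probe sets with a single symbol and carried 7.54% of their summed signal at E12.5 and 4.90% at P0.

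**Figure D1:**
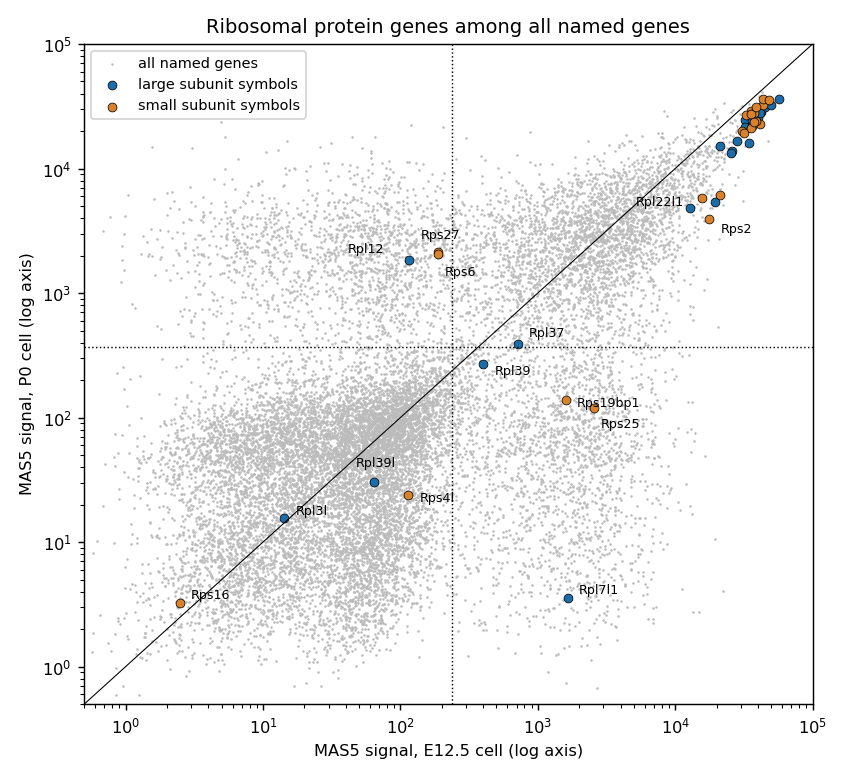
MAS5 signal of each named gene at E12.5 (horizontal) and at P0 (vertical), both on log axes, with large subunit symbols in blue, small subunit symbols in orange, the background limits dotted and equal signal as a solid line. Most ribosomal protein genes form a group at the upper right, below the line of equal deposited signal (8 cross it after quantile normalisation), and 14 genes that stand apart or differ most are named.

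The large subunit genes followed the order Rpl35, Rpl4, Rpl37a, Rpl27a, Rpl7 and Rplp2 from the brightest down, by the mean of both log2 signals. Rpl35, a protein near the exit of the nascent chain tunnel, had a signal of 57263 at E12.5 and 35895 at P0. Rpl4, which lines that tunnel, had 49900 and 32614. Rpl37a had 45415 and 30961, and Rpl27a 41922 and 28628. All 4 ranked within the 20 brightest of the 18194 genes in each cell. Rpl7 had 41606 and 27960. Rplp2, of the stalk that recruits elongation factors, had 41092 and 27668, close to the stalk base gene Rplp0 with 40378 and 25491. Their log2 ratios of P0 over E12.5 were -0.57 and -0.66, whereas the probe set of Rpl12, also at the base of the stalk, was brighter at P0, as described with its other probe sets further on. Levels of different genes come from different probes, so this order is one of signal and not of mRNA number.

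By the mean of both log2 signals the brightest small subunit genes were Rps7, Rps24, Rps10, Rpsa, Rps3a1 and Rps14. At E12.5 alone Rps15 (41164, and 22710 at P0) and Rps18 (38724, and 23944 at P0) were brighter than Rpsa, and their log2 ratios were -0.86 and -0.69. Rps7 had a signal of 47831 at E12.5 and 35504 at P0, and Rps24, a gene mutated in Diamond-Blackfan anaemia, 43591 and 36421, the highest of the 50 genes at P0. Rps10, mutated in the same anaemia, had 43791 and 32542, and Rpsa, also known as the laminin receptor, 38642 and 31074. On the deposited scale they were 1.35-fold and 1.24-fold higher at E12.5, while after quantile normalisation the log2 ratio was -0.03 for Rps10 and 0.18, the opposite sign, for Rpsa. Rps3a1 had 37623 and 27854 and Rps14, whose loss underlies the anaemia of a human deletion syndrome, 35341 and 28791. Log2 ratios of the 6 ran from -0.43 to -0.26 on the deposited scale, with the higher signal at E12.5, but quantile normalisation turned the sign for Rps24, Rpsa, Rps3a1 and Rps14 and left Rps7 at -0.02.

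**Figure D2:**
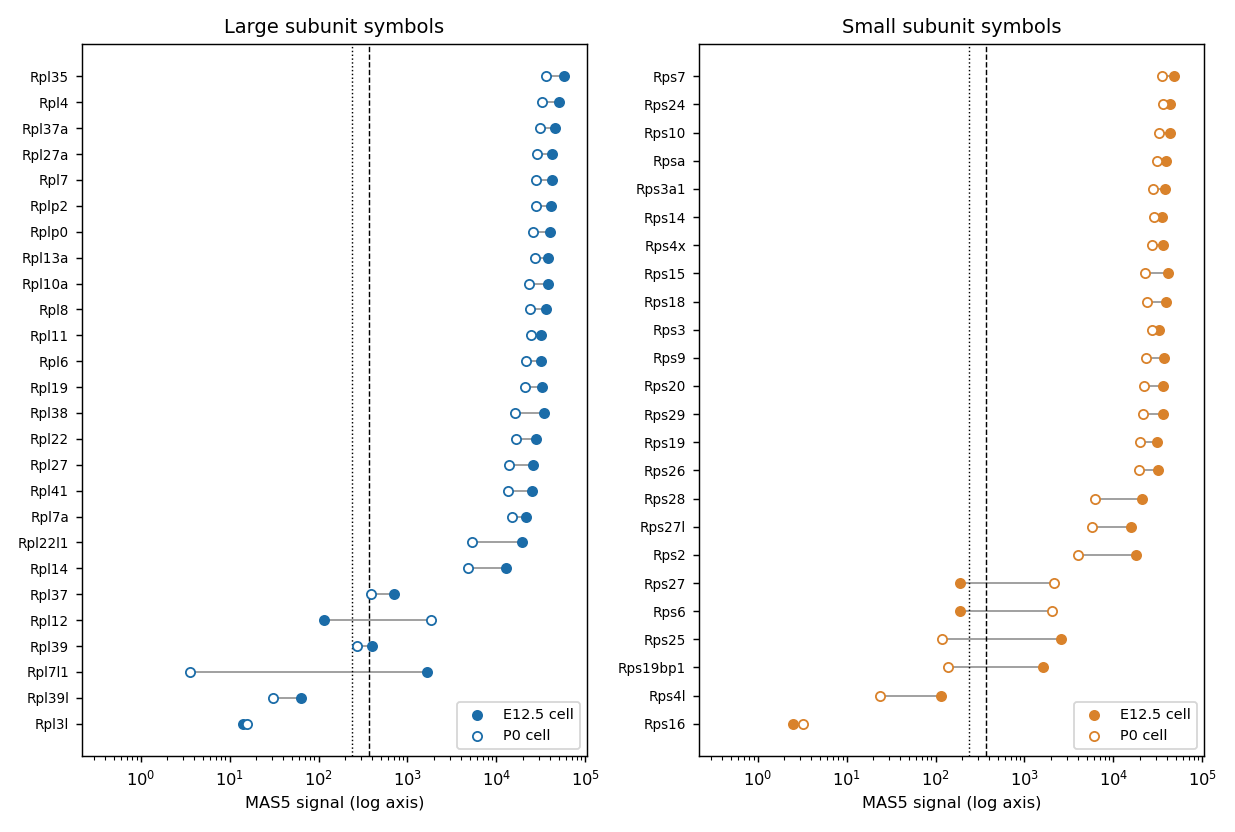
MAS5 signal of all 50 genes on a log axis, filled points for the E12.5 cell and open points for the P0 cell, ordered by the product of both signals, with the background limits of the E12.5 cell (dotted) and the P0 cell (dashed). The filled point lies to the right of the open one for each gene above both limits on this deposited scale (31 of 39 after quantile normalisation), while Rpl12, Rps27 and Rps6 lie the other way.

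Ratios are given as log2 of P0 over E12.5 throughout, and their median over the 39 genes above both limits was -0.64, which is 1.56-fold higher at E12.5, with quartiles of -0.81 and -0.51 and an SD over genes of 0.44. The median was -0.64 for 21 large and -0.64 for 18 small subunit genes. Over genes above at least 1 limit it was -0.64 for the large and -0.96 for the small subunit with the median probe set of each gene, and -0.66 and -0.82 with the mean over probe sets, and the difference between the subunits was not tested. All 39 were lower at P0 on the deposited scale (31 of them after quantile normalisation), as were 49.1% of the 3396 named genes above both limits. Over the 3396 the median was 0.03 with an SD of 1.48. Taking the mean over the probe sets of each gene in place of the brightest, 32 of 37 genes above both limits were lower at P0, and with the median probe set 31 of 33. Quantile normalisation, which makes both arrays' distributions alike, left the median at -0.13 and turned the sign of 8 of the 39, Rpl11, Rpl13a, Rps3, Rps3a1, Rps4x, Rps14, Rps24 and Rpsa, while scaling to the hybridisation spike-ins moved it to -1.51 with all 39 lower. The spike-ins themselves, 18 probe sets of bacterial and phage sequence added at hybridisation, were brighter in the P0 array by a median log2 ratio of 0.87, and scaling to them shifted the median of all named genes above both limits to -0.84.

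Across the 39 genes the brightness order was largely the same in both cells, with a Spearman coefficient of 0.90 and a Pearson coefficient of log2 signals of 0.94. Over all 3396 named genes these were 0.50 and 0.52. Among genes of the common ribosome the Spearman coefficient was 0.95 for 20 of the large and 0.77 for 17 of the small subunit. All are correlations across genes on the same pair of arrays, and genes are not independent replicates. The same probe set reads a gene in both arrays, and the part of probe differences in the shared order was not tested. The median difference between large and small subunit genes was small as well, with the large subunit lower by 0.08 on the log2 scale at E12.5 and by 0.22 at P0. Using the mean over each gene's probe sets instead put the large subunit higher by 1.33 and 2.00, so no order of the subunits is given.

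**Figure D3:**
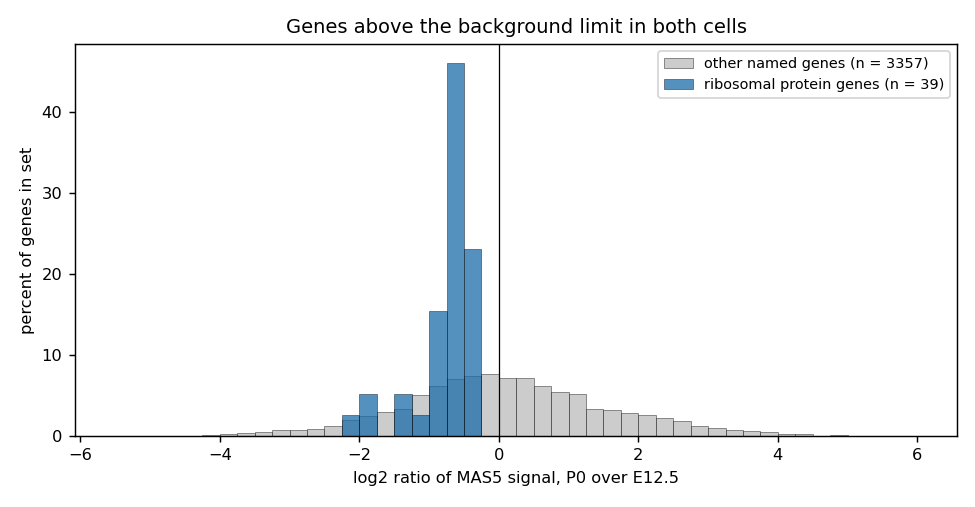
Percent of genes (vertical) by log2 ratio of signal, P0 over E12.5 (horizontal, bins of 0.25), for 39 ribosomal protein genes in blue and the other named genes in grey, all above the limit in both cells. The ribosomal protein genes lie in a narrow peak with a median of -0.64 on the deposited scale (-0.13 after quantile normalisation), and the other genes spread over both sides of 0.

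On the deposited scale, bright genes as a class were lower at P0 as well, and the ribosomal protein genes more so. Of 191 named genes with a signal above 10000 in both cells 33 were ribosomal protein genes, all lower at P0, with a median log2 ratio of -0.59 and an SD of 0.20. Among the other 158 bright genes the median was -0.21 (SD 0.44), and 109 of them were lower at P0. In the range of geometric mean signal from 20000 to 30000 the medians were -0.65 for 12 ribosomal protein genes and -0.41 for 38 others, and above 30000 they were -0.55 for 18 and -0.07 for 6. The ratio of 3′ to 5′ control signal was 6.17 for Actb at E12.5 and 2.20 at P0, and 1.06 and 1.43 for Gapdh. The part of RNA quality, array scaling and signal compression in these ratios was not tested.

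A few genes of the common ribosome departed from the narrow peak toward lower signal at P0. Rps2, a small subunit protein near the mRNA entry site, had 17749 at E12.5 and 3968 at P0, a 4.47-fold difference. Rps28, at the mRNA exit site, had 21017 and 6128, which is 3.43-fold, and its other probe sets gave 17309 and 5196 and 16486 and 6375. Rpl14 had 12823 and 4838. Rpl38, which is needed for the translation of Hox mRNAs in the embryo, had 34369 and 16071, or 2.14-fold. Rps25, which takes part in initiation at internal entry sites, had 2547 at E12.5 and 119, below the limit, at P0, at least 6.91-fold lower there. For Rps2, Rpl14 and Rps25, other probe sets whose annotation lists a pseudogene or predicted gene beside the ribosomal protein gave smaller differences. The brightest of these had log2 ratios of -0.97 for Rps2 (24720 and 12583), -0.47 for Rpl14 (50421 and 36396) and -0.85 for Rps25 (33207 and 18479).

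In the comparison at 4-fold, 4 of the 50 genes were called higher at E12.5 and 3 at P0. Over all named genes 7.07% were called higher at E12.5 and 9.46% at P0, against 8% and 6% of the 50. These shares have unlike bases, because only a gene above a limit can be called and most named genes were below it. Among genes above the E12.5 limit, 4 of 43 ribosomal protein genes and 1286 of 5599 named genes were called higher there. Among those above the P0 limit, 3 of 42 and 1721 of 5108 were. With the mean over the probe sets of each gene, 14.0% of the 50 and 3.69% of all named genes were called higher at E12.5. In that setting 42 of the 50 and 20.9% of all named genes were above the E12.5 limit, so the bases differ there too. The 4 called with the brightest probe set were Rps2, Rps25, the paralogue Rpl7l1 and Rps19bp1. Of these, Rpl7l1 was not called with the mean over probe sets or with the median probe set. Among the 43 genes of the common ribosome with Fau added, 2 (4.5%) were called higher at E12.5, against 7.07% of all named genes.

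The 3 called higher at P0 were Rpl12, Rps6 and Rps27. Rps6, the small subunit protein phosphorylated by S6 kinase, had a signal of 187 at E12.5, below the limit, and 2054 at P0, at least 8.68-fold higher. Rps27, of the small subunit, had 189 and 2151, at least 9.09-fold, and Rpl12, of the stalk base, 116 and 1840, at least 7.78-fold. All 3 were represented by a probe set that was dim next to others of the same gene. Probe sets listing Rps6 together with a pseudogene reached 47870 at E12.5 and 37516 at P0, a log2 ratio of -0.35. The one listing Rps27 with its near copy Rps27rt had 30560 and 15987 (log2 ratio -0.93), and the brightest listing Rpl12 had 33559 and 21647 (-0.63). These probe sets were then admitted, a choice made after seeing the data. None of 77 ribosomal protein genes was then called higher at P0, against 9.43% of all named genes. At E12.5, 2 of the 77 (2.60%), Rpl7l1 and Rps19bp1, were called higher, against 7.05%.

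Rps16 showed the same contrast at the low end. Its single-symbol probe set had a signal of 2.48 at E12.5 and 3.25 at P0, below both limits, and it was the only gene of the common ribosome above neither. A probe set listing Rps16 with a pseudogene had 43264 and 34376. Rpl37 (713 and 392) and Rpl39 (402, and 270 below the limit) were likewise dim by their own probe sets, where those shared with near copies had 55025 and 39473 for Rpl37 and 20535 and 10424 for Rpl39. For these genes the level depended on which probe set was read.

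The probe sets that list a ribosomal protein gene with other genes form a second reading of the family. There were 110 of them, naming 46 ribosomal protein symbols, 31 of which had no probe set of their own among the 50. They are no members by the rule used here. Of the 110, 92 were above the limit in both cells, and 90 of the 92 were lower at P0 on the deposited scale. They come from the same 2 arrays, and their signs after quantile normalisation were not counted. The median log2 ratio of the 92 was -0.67, with quartiles of -0.92 and -0.51. The 2 exceptions were a probe set of Rpl17 (2438 and 6514) and one shared by Rpl13 and Tax1bp3 (1111 and 5558). Larger differences toward lower P0 signal were given by the 3 brighter probe sets of Rpl13, with log2 ratios from -1.58 to -1.24, and by all 3 of Rpl36, from -1.65 to -1.33. Rpl5, which with Rpl11 restrains the p53 ligase Mdm2, had 40157 and 29719 by its brightest probe set. Its partner Rpl11, a member with its own probe set, had 32021 and 24617. The pair had log2 ratios of -0.43 and -0.38, while 2 dimmer probe sets of Rpl5 had -2.16 and -2.08.

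Where several probe sets of a gene were above a limit, their ratios mostly had the same sign on the deposited scale, while levels often differed. In 12 of the 24 genes with more than 1 probe set, a probe set was below both limits beside another above one. Rpsa, for example, had 3.31 and 7.19 by such a probe set, beside 38642 and 31074. Of the 106 probe sets 74 were above both limits, 11 were above the limit at E12.5 only, 3 at P0 only and 18 in neither. Of the 106, 88 were above at least 1 limit, as were 32.7% of all probe sets with a single symbol. Of the 74, 72 were lower at P0 on the deposited scale, with a median of -0.68. For 19 genes with at least 2 probe sets above a limit, the signs were all toward lower P0 signal in 17 on that scale. The signs of single probe sets after quantile normalisation were not counted. The SD of the log2 ratio between probe sets of a gene, both limits passed, was 0.57 over 19 genes and 0.83 over 973 named genes of all kinds. It comes from 1 cDNA per cell and holds no variation between cells of an age.

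**Figure D4:**
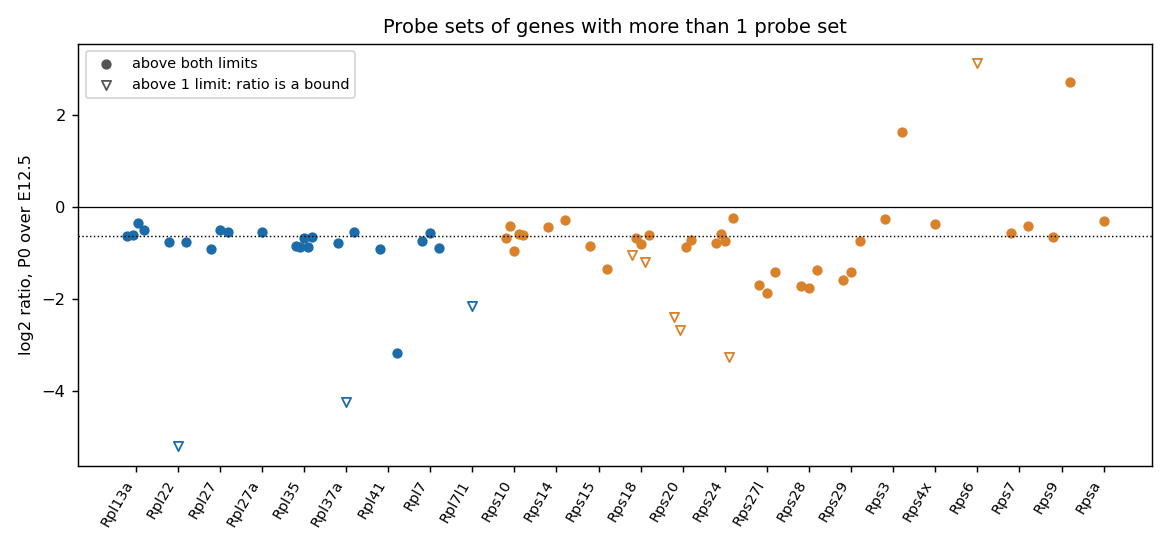
Log2 ratio of signal, P0 over E12.5, for each probe set above at least 1 limit of the 24 genes with more than 1 probe set, large subunit in blue and small subunit in orange. Filled points were above both limits, triangles above 1 limit only, so that their ratio is a bound, and the dotted line is the median of -0.64. Rps3, Rps6 and Rps9 have a point above 0.

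In 5 genes the probe sets differed by 4-fold or more in their ratio. Rps9 had 37163 at E12.5 and 23498 at P0 by the probe set used, and 3819 and 24971 by another, a log2 ratio of 2.71 in place of -0.66. Rpl22, which represses its own paralogue, had 28176 and 16514 by the probe set used, and 13675 against 83.4, below the limit, by another. Rpl37a had 7015 against 87.5, below the limit, by a weaker probe set. Rpl41, the shortest of the proteins, had 25378 and 13319, and 38590 and 4257 by another. Rps24 had a weaker probe set at 3553 against 4.88, below the limit. All but Rps9 had the same sign by every probe set above a limit. Rps3, a protein also linked to DNA repair, was opposite in sign as well, with 32604 and 26907 by the probe set used and 1306 and 4008 by a dimmer one, a difference of less than 4-fold between the ratios. Probe sets ending in _at only, which by the array's naming match a single transcript, were above at least 1 limit in 19 of 35, those ending in _a_at in 28 of 28 and those ending in _x_at, which may match others, in 38 of 40.

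The paralogues fell into a measured and an unmeasured set. Rpl22l1, which replaces Rpl22 in some ribosomes, had 19570 at E12.5 and 5376 at P0, 3.64-fold higher at E12.5, where Rpl22 itself was 1.71-fold higher. Rps27l, a p53 target, had 15565 and 5812, which is 2.68-fold, and its other 2 probe sets gave log2 ratios of -1.71 and -1.88. Rpl7l1, a ribosome assembly factor related to Rpl7, had 1656 at E12.5 and 3.58 at P0, at least 4.49-fold lower in the latter. That rests on 1 probe set of Rpl7l1, as its other 2 were below the limits in both cells (72.6 and 20.4, 5.41 and 26.9). Its partner Rpl7 differed by a log2 ratio of -0.57. Thus the 3 paralogues above a limit each had a lower log2 ratio than the median of -0.64, but with 1 cell per age a difference between a paralogue and its partner cannot be tested. Rpl3l, a muscle gene, had 14.3 and 15.5, and Rpl39l, a testis gene, 63.7 and 30.6, both below the limits. Rps4l, which RefSeq lists as a transcribed pseudogene, had 115 and 23.9 and was below them too. Their partners were bright, Rpl3 with 31014 and 21681 by a probe set shared with a predicted gene and Rps4x with 35620 and 27234. Rps19bp1 had 1612 and 139, the latter below the limit, at least 4.37-fold higher at E12.5.

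Fau, which encodes a small subunit protein fused to a ubiquitin-like domain and which the naming rule misses, had 32193 at E12.5 and 15064 at P0. It was 2.14-fold higher at E12.5, with a log2 ratio of -1.10 that was -0.68 after quantile normalisation. Some further genes, not among those fixed for naming, were looked up with values of these data known, so they stand for no class. Those with Eef symbols are also among the initiation and elongation factor genes counted further on. The elongation factor gene Eef1a1 had 41332 and 28972, Eef2 33181 and 22577, Eef1b2 33252 and 21126, Tpt1 37158 and 23413, and Naca 30660 and 20818. These log2 ratios, from -0.67 to -0.51, lay near the ribosomal protein median and the value of Gapdh, and after quantile normalisation they ran from -0.11 to 0.21. On the deposited scale the poly(A)-binding protein gene Pabpc1 was 5.09-fold higher at E12.5 (14465 and 2843), and the chaperone gene Nap1l1 7.75-fold (20919 and 2699). Both kept that sign after quantile normalisation, with log2 ratios of -2.26 and -2.82. Eef1d, with 16653 and 14470, had -0.20 and, after quantile normalisation, 0.05. Gapdh, a glycolytic gene often used as a reference, had 38226 and 27028, with -0.50 and 0.05. Actb, looked up as well, had 14345 and 3815 by its brightest probe set, with -1.91 and, after quantile normalisation, -1.81. The control probe sets of Actb did not share a sign on the deposited scale. The 3′ one had 5050 and 2723 (-0.89), the middle one 412 and 1010 (1.30) and the 5′ one 818 and 1240 (0.60). No direction is therefore given for Actb.

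On the deposited scale the mitochondrial ribosome, which is built from a separate set of proteins, had no such one-sided difference, at much lower signals. Of 76 mitochondrial ribosomal protein genes 60 (78.9%) were above the limit at E12.5 and 51 (67.1%) at P0. Over the 43 above both limits the median log2 ratio was 0.04 with an SD of 1.66, and 20 were lower at P0. Initiation and elongation factor genes, 58 in all, had 50 (86.2%) and 45 (77.6%) above the limits, and the 41 above both had a median of -0.14 (SD 1.18), with 23 lower at P0. Medians of signal were 1704 and 1688 for the mitochondrial proteins and 3947 and 4213 for the factors. No test between these sets was run. Dimmer genes varied more in general, the SD of the log2 ratio over genes outside the family being 1.52 at mean signals of 1000 to 10000 and 0.50 at 20000 to 30000. Their median log2 ratio changed with signal as well. It was 0.03 at 1000 to 10000, -0.28 at 10000 to 20000, -0.41 at 20000 to 30000 and -0.07 for 6 genes above 30000. The part of signal level in the contrast between the sets was not tested.

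Genes that build ribosomes differed in both directions. Of 36 listed genes of ribosome assembly, RNA polymerase I and their growth control, 26 were above the limit at E12.5 and 25 at P0, which is 72.2% and 69.4%, where 30.8% and 28.1% of all named genes were. Of the 36, 7 (19.4%) were called higher at E12.5, where 7.07% of all named genes were, and 4 (11.1%) at P0, where 9.46% were. Only a gene above a limit can be called, so the larger share above the limits enters these figures. Among genes above the E12.5 limit, 7 of 26 listed genes and 1286 of 5599 named genes were called higher there. Among those above the P0 limit, 4 of 25 and 1721 of 5108 were. Over the 19 above both limits the median log2 ratio was -0.74, and 12 were lower at P0. Nucleophosmin (Npm1), a nucleolar chaperone, had 24662 at E12.5 and 8980 at P0, and nucleolin (Ncl) 16783 and 10064. Gnl3, the nucleolar GTPase nucleostemin, was 9.67-fold higher at E12.5 (13456 and 1392) and Nop56, of the snoRNA complexes that methylate ribosomal RNA, 4.57-fold. The growth regulator gene Mycn had 6362 at E12.5 and 6.90 at P0, at least 17.3-fold lower there, while Myc had 1786 and 2505. Mtor was called higher at E12.5 (4053, and 169 below the limit), and Larp1, which binds TOP mRNAs, had 2781 and 1811. At P0, Ltv1, a factor of small subunit export, was at least 7.78-fold, Polr1b, a polymerase I subunit, at least 7.70-fold, Rrp1b at least 5.62-fold and Utp3 at least 5.22-fold higher. Fibrillarin (Fbl), with 5242 and 6505, and the nucleolar proteins Nhp2 and Nop10 (6652 and 6765, 7501 and 7701) had log2 ratios of 0.31, 0.02 and 0.04, which scaling to spike-ins turned to -0.56, -0.85 and -0.83.

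Genes with and without the sequence features above had overlapping log2 ratios. Among 32 genes of the common ribosome above both limits with a promoter entry, the median log2 ratio was -0.68 for 6 with a C and 4 pyrimidines at the annotated start and -0.61 for 26 without. It was -0.61 for 16 with CCGGAAG and -0.64 for 16 without. The 4 with TATAAA had a median of -1.27 and ran from -2.16 to -0.66, the range of the 28 without being -1.41 to -0.26, so the values overlap. Annotated starts can lie several bases from the start in use, and the absence of a run in a window says only that these letters are not there.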

How the data were processed

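The authors deposited MAS5 signal intensities, 1 per probe set and cell, on a linear scale, from Affymetrix mouse genome arrays, per the series' design text and the labels. Settings and detection calls were not used. Each array had a trimmed mean of 500.0 (2% removed from either tail). Reads and depth do not apply. Probes were named from GEO's platform annotation: 34958 probe sets had 1 symbol, 932 several and 9211 were not listed. Other genes' symbols were updated by gene identifier (RefSeq, GRCm38.p6). The brightest probe set by mean log2 signal stood for a gene. Calls needed a ratio of at least 4 after raising both signals to their limits, and a brighter signal above its limit. A fold against a signal under the limit is given as "at least", and none is given where both were under it. Log2 ratios over genes above 1 limit enter medians at their bound. No p-value was computed.

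Members, lists and rules were chosen with earlier results of these data known. Genes named were the 6 brightest of each subunit, the 6 most different each way (3 existed toward P0), all above neither limit, all paralogues, and those whose probe sets differed 4-fold. Others named were chosen after their values were seen. The calling was also run on simulated data with less noise than the probe sets of a gene showed here. That run checks the code and not the error of calls on these arrays. Python 3.11.15, pandas 2.3.3 and numpy 2.4.6 were used. Alternatives tried were limits, scalings, probe set choices, a pseudocount of 64, a 2-fold threshold and other member lists.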

Additional observations from a re-analysis of the deposited data

Results flagged for a closer look

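Control probe sets for 18S ribosomal RNA, the RNA of the small subunit, gave signal in a measurement that none of the comparisons uses. In the E12.5 cell the probe sets near the 3′ end, the middle and the 5′ end of the RNA had 7813, 10356 and 10783, all above the limit of 237. In the P0 cell the middle and 5′ probe sets had 378 and 1696, above the limit of 369, and the 3′ probe set had 258, below it. The E12.5 signal was 27.4-fold that of the P0 cell for the middle probe set and 6.36-fold for the 5′ probe set. The cDNA was primed at poly(A) tails, which 18S ribosomal RNA lacks in its mature form. How the signal arose was not tested.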

How the results depend on the processing

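Of 90 values recomputed under alternatives, 71 moved by less than the tolerance (a factor of 1.5 for counts and shares, 5 percentile points, or the SD of 0.57 between probe sets of a gene for log2 values), 19 moved by more and 0 changed the sign of a median log2 ratio. Scaling to spike-ins moved the median log2 ratio to -1.50 over all genes above a limit, -1.50 for the large and -1.51 for the small subunit, and raised the genes called higher at E12.5 to 8 (16% of the 50, against 11.4% of all named genes). That count was 7 with the mean over probe sets (14.0% against 3.69%) and 9 at 2-fold (18% against 12.4%). Without paralogues and with Fau 2 were called (4.5% against 7.07%). Probe sets of several symbols, a setting added after the data were seen, also gave 2 (2.60% against 7.05%). Under it 74 and 72 of 77 genes were above the limits and 0 were called higher at P0, against 9.43% of all named genes. Only genes above a limit can be called, and a larger share of ribosomal protein genes than of all named genes was above it. The difference of large minus small subunit, -0.08 and -0.22 as reported, turned its sign and became 1.33 and 2.00 with the mean over probe sets, 1.52 and 1.87 with the median probe set, and 0.52 and 1.60 without probe sets ending in _x_at or _s_at, which also lowered the share of summed signal to 4.94% and 3.23%, fewer probe sets being summed. The cause of the other changes was not tested. Quantile normalisation kept the sign of the medians (-0.13, -0.14 for the large and -0.10 for the small subunit). It brought the median over all genes above a limit from -0.63 to -0.13. These medians still count among the 71, because the tolerance of 0.57 is close to the size of the reported median itself. The 71 also hold the counts of genes above the limits under both scalings. Those counts could hardly change, because each limit is taken anew from the rescaled array, so they show nothing about robustness. No paired analysis was possible because each age has a single cell.

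A signal below the limit is no evidence that a transcript was missing from the cell. Probe sets of near-identical copies cannot be told apart, and compression of signal near the top of the range was not tested.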
